A study of Zea mays with 57 samples.

Results

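Maize shoots sampled 90 min after nitrogen-starved seedlings received nitrogen were set against shoots sampled 90 min after a transfer to KCl. The 6 libraries were taken by their labels, 3 for nitrogen at 90 min and 3 for KCl at 90 min, out of 57 libraries in the series. All plants were of the inbred line B73 and 10 days old, and all had been starved of nitrogen for 2 days before the transfer, which was done 2 h after the lights came on. The nitrogen medium held 20 mM KNO3 plus 20 mM NH4NO3, with 10% of its nitrogen as 15N, and the KCl medium held 20 mM KCl. The media therefore also differed in chloride and in total salt, and what each component did cannot be told apart. The remaining libraries were the start, harvested at 0 min, and both media at 8 other times from 5 to 120 min. Each replicate was a pool of 3 seedlings, so p-values measure the spread between pools.

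Nitrate and ammonium are both nutrients and signals in plants. Roots take them up, and the nitrate that reaches the leaf is reduced to nitrite in the cytosol and then to ammonium in the plastid, where it enters glutamine and glutamate. Starved plants that meet nitrate change the transcription of genes for its transport, its reduction and the supply of reductant, through regulators that respond directly to the ion, as known best from Arabidopsis. The question addressed here is how far shoots in the 2 media differed at 90 min, which genes carried the difference, and how it compared with the difference earlier in the course.

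Values are counts of 3' end reads per gene, given below in scaled CPM, the usual share of a gene in the counts of its library, with library totals scaled by the TMM method. Nitrogen libraries of 90 min held 2469527 to 2884517 counts and KCl libraries 1850746 to 2091007. The other libraries held 1057488 to 5684785 counts, except replicate 3 of nitrogen at 120 min, which held 8560 and was left out of the levels given for that time. It stayed in the edgeR tests and their log2 differences, except where its removal is stated. The chi-square per degree of freedom between replicates of 90 min was 1.83 to 1.97 in nitrogen and 2.05 to 2.76 in KCl, which exceeds the noise of counting. The deposited files do not pair nuclear gene IDs with names, and 0 of the 44146 nuclear IDs occurred in the reference table of names. No nuclear gene is therefore given a name or a role, and the shoot label could not be checked against cell type markers. Organelle genes did take names. In bulk tissue, fewer cells of a type and less RNA per cell cannot be told apart.

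At 90 min the media differed in 1217 of the 18412 genes tested (6.61%), by edgeR's quasi-likelihood test with a Benjamini-Hochberg adjusted p under 0.05. Of these, 597 genes (3.24%) were higher in nitrogen and 620 (3.37%) were lower, while the median log2 difference of all genes was 0.003. With plain library totals in place of TMM the calls were 759 higher and 508 lower, or 59.9% higher against 49.1%. The changes were mostly moderate. Among the genes higher in nitrogen the median size was 0.77 on the log2 scale, 193 genes changed by more than 2-fold, 67 by more than 4-fold and 27 by more than 8-fold. Among those lower in nitrogen the median size was 0.76, and 169, 31 and 8 genes passed the same folds. A change under 1.5-fold was found in 158 of the higher and 156 of the lower genes. The 3 nitrogen libraries did not overlap the 3 KCl libraries for 576 of the 597 higher and 607 of the 620 lower genes, and also for 5260 of all genes tested (28.6%). The count of calls moved with the libraries kept: it was 635 without nitrogen replicate 1, 370 without nitrogen replicate 3, 403 without KCl replicate 1 and 682 without KCl replicate 2. DESeq2 called 515 genes.

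**Figure D1:**
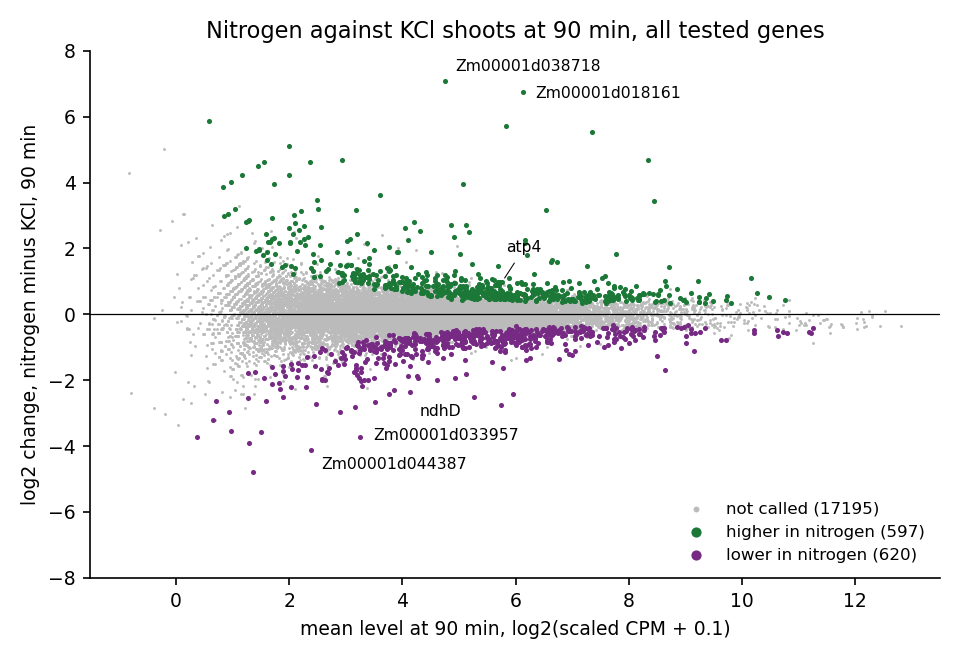
Each point is 1 of the 18412 genes tested; the horizontal axis is its mean level over the 6 libraries of 90 min as log2(scaled CPM + 0.1), and the vertical axis its log2 difference, nitrogen minus KCl. The 597 genes higher in nitrogen (green) and the 620 lower (purple) lie on both sides of 0 over the range of levels, and the largest differences, past 6 on the log2 scale, are positive.

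Abundant genes passed the test more often, and with smaller changes. In 4 equal bins of genes ordered from low to high abundance, 3.13%, 4.87%, 6.89% and 11.6% were called, and the median size of a called change was 1.94, 1.05, 0.73 and 0.59 on the log2 scale. On the 10 chromosomes the share called ran from 5.24% on chromosome 9 to 7.94% on chromosome 1. Of 18241 pairs of neighbouring tested genes 96 (0.526%) were both called, where 6.61% of all single genes were. Of these pairs 24 were both higher in nitrogen, 30 both lower and 42 in opposite directions. Whether called genes lay together more often than at random was not tested. No pair called in the same direction had overlapping gene models. Presence in nitrogen against absence in KCl was rare: 3 tested genes had at least 1 count in each nitrogen library and 0 in all KCl libraries, and 1 of these was called. The converse was found for 0 genes.

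Genes of the authors' network table passed the test more often than other nuclear genes. That table scores pairs of a regulator and a target with a weight, and the sources used here do not say how its genes were chosen. They may have been picked on these libraries, so their counts are not independent evidence. Among its 203 regulators 25 were higher in nitrogen, 22 were lower and 156 were not called, which is 23.2% called at a median log2 difference of 0.03. Among 2499 other targets 235 were higher and 252 lower (19.5% called), with a median of -0.12 and 1451 negative values. Among the 15544 other nuclear genes tested 335 were higher and 344 lower (4.4% called), with a median of 0.01. Of 138 other nuclear non-coding RNA genes 1 was higher and 1 lower, and none of the 154 microRNA genes passed the filter on low counts.

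Regulators ranged from -3.74 to 3.64 on the log2 scale at 90 min. The called ones had a median size of 1.00 where higher in nitrogen and 0.96 where lower, and 12 of the 25 higher and 10 of the 22 lower regulators changed by more than 2-fold. Their top targets, the 10 targets of largest weight for each regulator, were more often lower than higher whichever way the regulator went. Of 250 top targets of regulators higher in nitrogen, 10.4% were higher and 13.6% lower, with a median log2 difference of -0.28. For the 220 top targets of regulators lower in nitrogen the shares were 5.91% and 10.9%, with a median of -0.34. For the 1560 top targets of regulators not called they were 7.44% and 13.4%, with a median of -0.33. The 250, 220 and 1560 are pairs of a regulator and a target. A target can belong to several regulators, so these lists share genes, and the differences between them were not tested. Of the 2499 other targets in the table, 235 were higher and 252 lower, with a median of -0.12. In all genes tested 3.24% were higher and 3.37% lower.

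The largest increase among genes averaging 5 CPM or more was that of Zm00001d038718, a target in the network table on chromosome 6 (AGPv4, 163324435 to 163325813, minus strand). It stood at 53.0, 60.0 and 47.7 CPM in nitrogen replicates 1 to 3, against 0, 1.06 and 0 CPM in KCl replicates 1 to 3. All 3 nitrogen libraries were far above all KCl libraries. It averaged 53.6 ± 6.21 CPM in nitrogen and 0.352 ± 0.610 CPM in KCl (SD, n = 3 each). The fitted log2 difference was 7.07 (SE 0.578, adjusted p = 4.55e-13 by edgeR's quasi-likelihood test). The KCl level rests on 2 counts in all, against 416 in nitrogen, and the ratio of these summed counts per library size was 152 (95% exact interval 41.9 to 1261, for counting error only). The nitrogen group stood above the start, at 0.822 ± 0.549 CPM, by 5.99 (adjusted p = 3.47e-14), whereas the test of KCl against the start gave -1.08 (adjusted p = 0.668). Its nitrogen means at 30, 60, 90 and 120 min were 10.8, 39.8, 53.6 and 59.5 CPM (n = 2 at the last). The difference between media at 90 min minus that at 120 min was 0.27 (adjusted p = 0.990).

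Zm00001d018161 on chromosome 5 (215727084 to 215730071, minus strand), also a network target, had 125.7, 165.1 and 124.4 CPM in the nitrogen libraries, against 0.494, 1.58 and 1.67 CPM in the KCl libraries. The groups lay far apart. The means were 138 ± 23.2 CPM in nitrogen and 1.25 ± 0.654 CPM in KCl (SD, n = 3 each), and the log2 difference was 6.76 (SE 0.456, adjusted p = 9.09e-16). The summed counts were 1075 in nitrogen and 7 in KCl, a ratio of 112 per library size (95% exact interval 54.4 to 280). At 60, 90 and 120 min the nitrogen means were 164.5, 138 and 118 CPM (n = 2 at the last). The difference at 90 min minus that at 60 min was -4.95 (SE 2.43, adjusted p = 0.363), in a fit where no KCl library of 60 min held a count. Against the start, at 0.474 ± 0.264 CPM, nitrogen was higher by 8.10 (adjusted p = 5.63e-18), and KCl gave 1.34 (adjusted p = 0.560).

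The 2 largest decreases under the same rule were in genes whose KCl group at 90 min stood above the start. These genes and the 2 above were chosen on libraries of 90 min that also enter the comparisons with the start. Those comparisons therefore stand beside the difference between media and are not separate evidence. Zm00001d044387 on chromosome 3 (226714841 to 226734363, plus strand), a network target, had 0.402, 0.812 and 0.351 CPM in nitrogen, against 8.89, 15.8 and 4.44 CPM in KCl. The groups did not overlap, though the KCl libraries spread widely around their mean. The means were 0.521 ± 0.253 CPM in nitrogen and 9.73 ± 5.75 CPM in KCl (SD, n = 3 each), and the log2 difference was -4.13 (SE 0.742, adjusted p = 0.000349). KCl over nitrogen was 19.1 in summed counts per library size (95% exact interval 7.07 to 72.6), from 4 counts in nitrogen and 56 in KCl. Against the start, at 0.430 ± 0.376 CPM, nitrogen differed by 0.16 (adjusted p = 0.991), and KCl was higher by 4.29 (adjusted p = 0.000216). In KCl the means at 15, 20, 60 and 90 min were 13.0, 11.4, 2.65 and 9.73 CPM. At 120 min nitrogen averaged 5.78 ± 2.62 CPM (n = 2) and KCl 5.24 ± 3.77 CPM (n = 3). The difference between media at 90 min minus that at 120 min was -4.20. It did not pass edgeR's quasi-likelihood test (adjusted p = 0.230).

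Zm00001d033957 on chromosome 1 (279603784 to 279609495, plus strand) is a regulator in the network table, the 21st of 203 by its summed weight. It had 0.402, 2.43 and 1.05 CPM in nitrogen, against 23.2, 16.9 and 12.8 CPM in KCl, with no overlap between the groups. It averaged 1.30 ± 1.04 CPM in nitrogen and 17.6 ± 5.26 CPM in KCl (SD, n = 3 each), and the log2 difference was -3.74 (SE 0.567, adjusted p = 1.78e-05). KCl stood above the start, at 1.57 ± 1.51 CPM, by 3.36 (adjusted p = 5.34e-05), and nitrogen gave -0.38 (adjusted p = 0.946). Its KCl mean had 2 high stretches: 24.7 CPM at 15 and at 20 min, then 4.20 CPM at 60 min, then 17.6 CPM at 90 min and 13.5 CPM at 120 min. The KCl change between 60 and 90 min did not pass the test. In nitrogen it was 9.10 ± 2.87 CPM at 120 min (n = 2). The difference between media at 90 min minus that at 120 min was -3.19 (adjusted p = 0.244), so the approach of the media at 120 min did not pass the test. Among its 10 top targets 1 was higher in nitrogen, 2 were lower, and their median log2 difference was -0.36. Top targets of regulators that were not called were similar, with 7.44% higher, 13.4% lower and a median of -0.33, and the lists share genes.

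**Figure D2:**
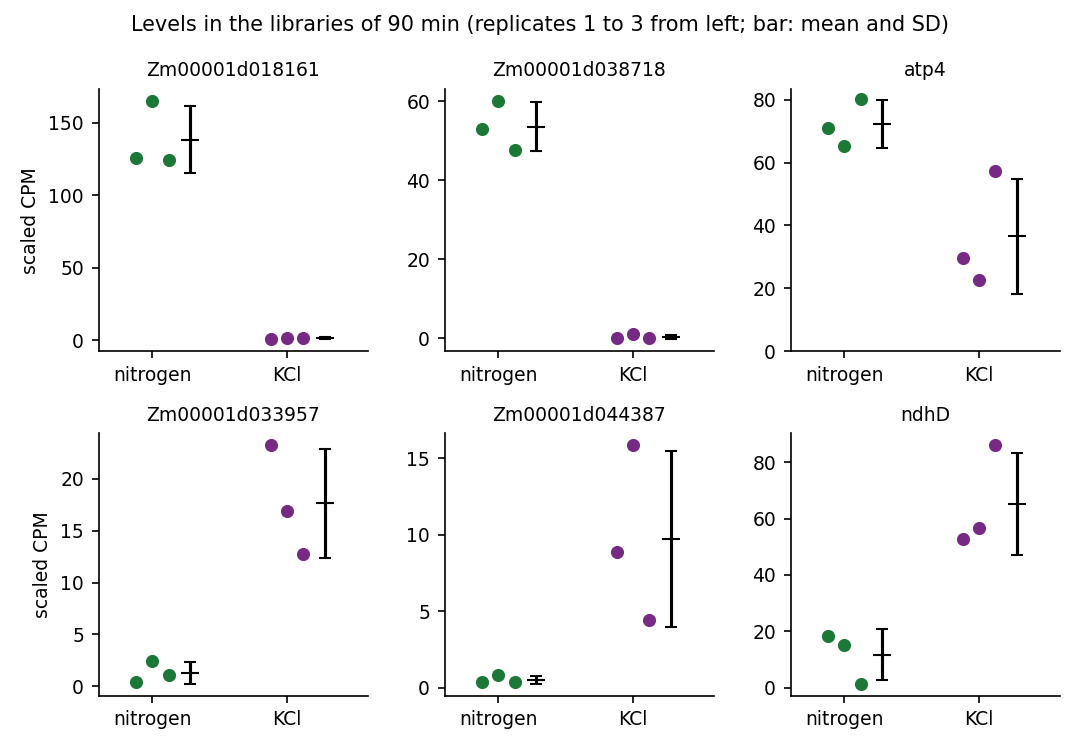
Scaled CPM in each of the 6 libraries of 90 min, nitrogen left (green) and KCl right (purple), for 6 genes; the bar beside each group is its mean with the SD. In each panel the lowest library of the higher group lies above the highest library of the lower group, which was a condition for naming these genes. In atp4 the lowest nitrogen library was at 65.3 CPM and the highest KCl library at 57.2 CPM.

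Mitochondrial and plastid models lay on opposite sides of 0, with few calls. Both sets of genes encode parts of the photosynthetic or respiratory membranes and of the machinery that makes them. These libraries were primed on poly(A), so for organelle RNA they show only the fraction captured that way. Of 144 mitochondrial models 21 passed the filter. All 21 had a positive log2 difference, with a median of 0.57, but 1 was called (4.76%, beside 6.61% of all genes). Of 74 plastid models 7 passed. All 7 had a negative log2 difference, with a median of -0.38, and 1 was called. Members of 1 organelle share a genome and often a transcript, so they are not independent.

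The mitochondrial call was atp4 (GRMZM5G884912, mitochondrial genome, 138553 to 139212, minus strand), which encodes a subunit of the ATP synthase. It had 71.1, 65.3 and 80.3 CPM in nitrogen, against 29.6, 22.7 and 57.2 CPM in KCl. The groups did not overlap, and KCl replicate 3 stood well above the other 2 KCl libraries. The means were 72.2 ± 7.53 CPM in nitrogen, 36.5 ± 18.2 CPM in KCl and 42.4 ± 7.08 CPM at the start (SD, n = 3 each). The log2 difference was 0.99 (SE 0.286, adjusted p = 0.0270 by edgeR's quasi-likelihood test). The call was lost without nitrogen replicate 1, nitrogen replicate 3, KCl replicate 1 or KCl replicate 2, at adjusted p-values of 0.0663 to 0.184. At 30, 45 and 60 min the nitrogen means were 52.6, 48.8 and 41.1 CPM.

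No other mitochondrial model passed the test. The cytochrome oxidase subunit gene cox3 had 250.5, 271.4 and 261.4 CPM in nitrogen, against 130.4, 134.7 and 258.1 CPM in KCl, a log2 difference of 0.59 (adjusted p = 0.412). KCl replicate 3 was close to the nitrogen libraries there, while KCl replicates 1 and 2 were at about the same lower level. The ribosomal protein gene rps7 was at 0.74 (adjusted p = 0.266), the maturase gene mat-r at 0.62 (adjusted p = 0.334) and nad4, which encodes a subunit of respiratory complex I, at 0.20 (adjusted p = 0.761). Mitochondrial models took 0.423%, 0.439% and 0.406% of the counts in nitrogen, against 0.364%, 0.260% and 0.471% in KCl. The means were 0.422% ± 0.0167 in nitrogen and 0.365% ± 0.106 in KCl (SD, n = 3 each; two-sided exact permutation p = 0.5). KCl replicate 3 was above all nitrogen libraries and KCl replicate 2 was the lowest of the 6.

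The plastid call was ndhD (GRMZM5G800096, plastid genome, 110138 to 111685, minus strand), which encodes a subunit of the NADH dehydrogenase-like complex. It had 18.5, 15.0 and 1.40 CPM in nitrogen, against 52.9, 56.5 and 86.0 CPM in KCl. The groups were apart, with replicate 3 the lowest nitrogen library and the highest KCl library. The means were 11.6 ± 9.02 CPM in nitrogen, 65.1 ± 18.2 CPM in KCl and 32.6 ± 53.7 CPM at the start (SD, n = 3 each), and the log2 difference was -2.52 (SE 0.676, adjusted p = 0.0171). The call was lost without nitrogen replicate 3 (-1.96, adjusted p = 0.138), without KCl replicate 3 (-2.29, adjusted p = 0.0595) and in DESeq2 (adjusted p = 0.107). The nitrogen mean was between 0.544 and 2.23 CPM at the 7 times from 5 to 60 min, 11.6 CPM at 90 min and 24.7 ± 9.88 CPM at 120 min (n = 2). The difference between media at 90 min minus that at 60 min was 2.28 and did not pass (adjusted p = 0.466).

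The ribosomal protein gene rps16 had 1623, 1905 and 1656 CPM in nitrogen, against 2368, 3274 and 3896 CPM in KCl, a log2 difference of -0.88 that did not pass (adjusted p = 0.200). Its groups did not overlap. The maturase gene matK, at -0.23, had nitrogen values inside the KCl range, since KCl replicate 3 held 995 CPM. Plastid models took 0.219%, 0.252% and 0.215% of the counts in nitrogen, against 0.282%, 0.365% and 0.491% in KCl. Every nitrogen library was below every KCl library, and the means were 0.229% ± 0.0200 in nitrogen and 0.379% ± 0.105 in KCl (SD, n = 3 each; two-sided exact permutation p = 0.1, the smallest that 3 against 3 allows).

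**Figure D3:**
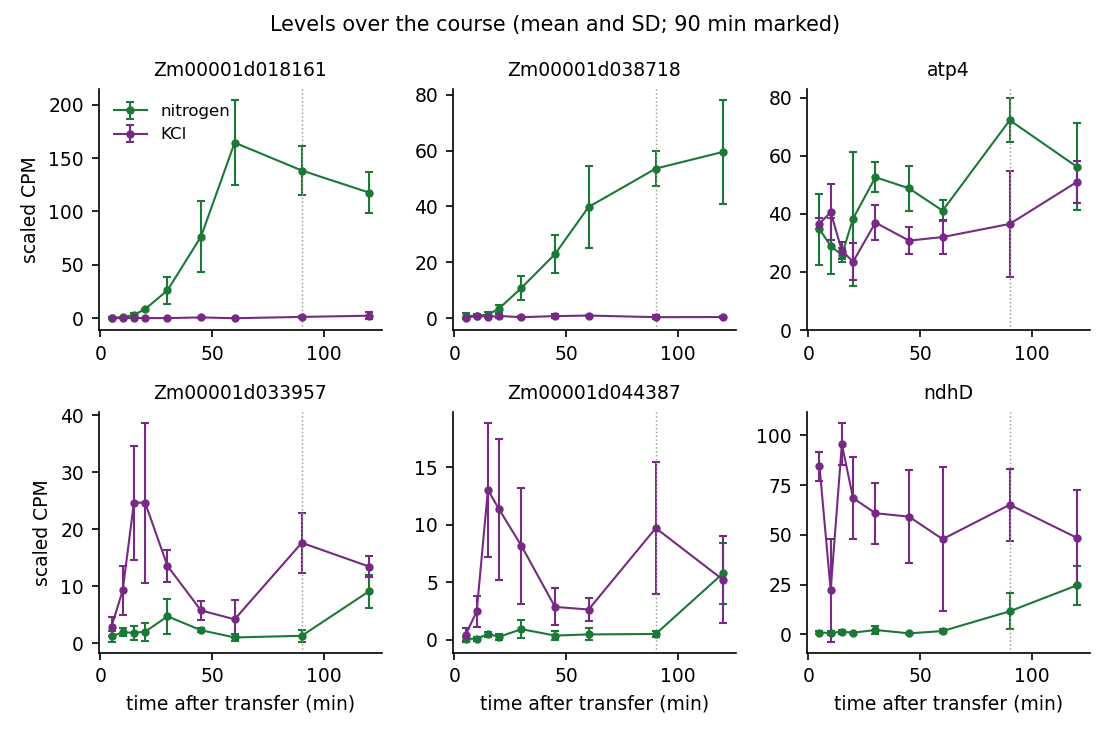
Mean scaled CPM with SD over time after transfer (5 to 120 min) in nitrogen (green) and KCl (purple) for the same 6 genes; n = 3, but n = 2 for nitrogen at 120 min, and the dotted line marks 90 min. The levels of Zm00001d018161 and Zm00001d038718 in nitrogen stayed high at 90 min, the KCl means of Zm00001d033957 and Zm00001d044387 were 17.6 and 9.73 CPM at 90 min, and ndhD in nitrogen was above its earlier values at 90 and 120 min.

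The genes called at 90 min mostly had the same direction in the libraries of other times. Those libraries did not enter the difference at 90 min, but the filter, the scaling and the estimate of spread used all libraries. Abundant genes also passed the test more often, so the calls at different times are not independent. The tests and log2 differences at 120 min included the library of 8560 counts. Of the 597 genes higher in nitrogen at 90 min, the test at 20, 60 and 120 min also called 387 (64.8%), 327 (54.8%) and 63 (10.6%) higher. The reverse shares were 15.8% of the 2448 genes higher at 20 min, 18.3% of the 1783 higher at 60 min and 70.8% of the 89 higher at 120 min. In all genes tested 13.3%, 9.68% and 0.483% were called higher at these times. Their median log2 difference was 0.26, 0.64, 0.63 and 0.30 at 5, 20, 60 and 120 min, where the median of all genes was within 0.02 of 0.

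Of the 620 genes lower at 90 min, the same 3 tests called 375 (60.5%), 303 (48.9%) and 37 (5.97%) lower. They were 15.2% of the 2465 genes lower at 20 min, 15.1% of the 2012 lower at 60 min and 34.3% of the 108 lower at 120 min, and 13.4%, 10.9% and 0.587% of all genes tested were called lower at these times. The median log2 difference was -0.27, -0.60, -0.56 and -0.26 at 5, 20, 60 and 120 min.

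The size of the difference at 90 min was then read from genes chosen at another time. At 45 min 1840 genes were called higher in nitrogen (9.99%) and 2515 lower (13.7%). In the 1840 genes the median log2 difference between media was 0.57, 0.30 and 0.13 at 60, 90 and 120 min, and 55.4%, 16.6% and 2.93% of them were called higher at these times, beside 9.68%, 3.24% and 0.483% of all genes tested. In the 2515 genes the medians were -0.75, -0.31 and -0.13, and 55.0%, 11.8% and 1.55% were called lower, beside 10.9%, 3.37% and 0.587% of all genes. The shares called thus also declined over all genes tested, and the values at 120 min include the library of 8560 counts. Both medians were thus nearer to 0 at 90 min than at 60 min.

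Each medium was also read against the start. For the 1840 genes the median of nitrogen minus the start was 0.24, -0.04 and -0.16 at 60, 90 and 120 min, while the median of KCl minus the start was -0.32, -0.32 and -0.29. For the 2515 genes nitrogen minus the start was -0.41, 0.06 and 0.19, while KCl minus the start was 0.34, 0.35 and 0.31. Both sets of values share the 3 start libraries, so they stand side by side and were not tested against each other.

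**Figure D4:**
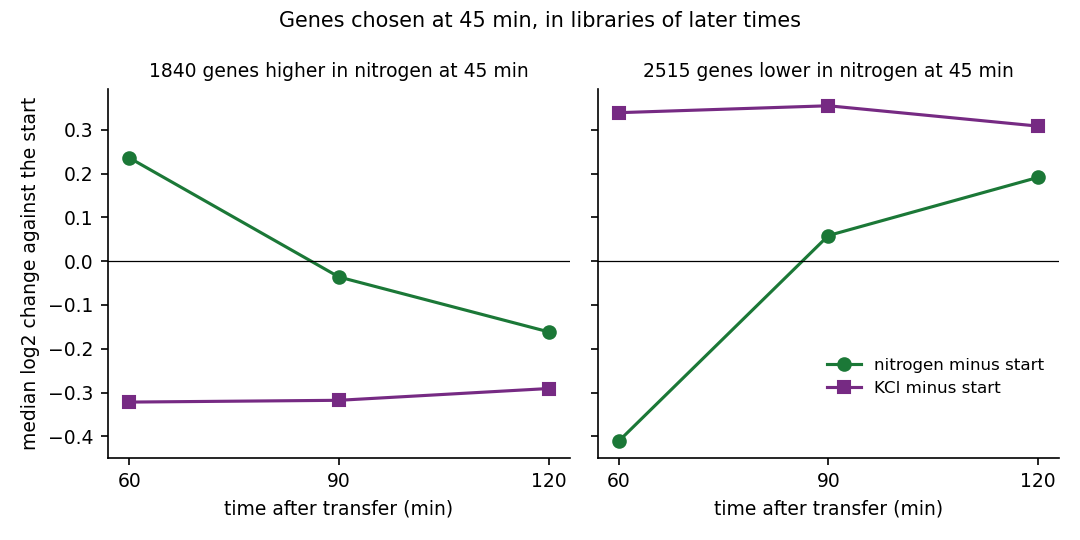
Median log2 change against the start at 60, 90 and 120 min in nitrogen (green circles) and KCl (purple squares), for the 1840 genes called higher and the 2515 called lower in nitrogen at 45 min. The nitrogen medians cross 0 near 90 min (-0.04 and 0.06), and the KCl medians stay between -0.32 and -0.29 on the left and between 0.31 and 0.35 on the right.

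Libraries were also placed on an axis drawn from the 6 times from 5 to 45 min, with the mean of KCl at 0% and the mean of nitrogen at 100%. Nitrogen libraries of 90 min stood at 47.0%, 52.2% and 66.9%, against -4.49%, -2.79% and 14.7% for KCl libraries of 90 min. The groups did not overlap, and the means were 55.4% ± 10.3 in nitrogen and 2.47% ± 10.6 in KCl (SD, n = 3 each; two-sided exact permutation p = 0.1, the smallest possible). Nitrogen libraries of 60 min averaged 113% ± 12.3 and ran from 98.6% to 121%, above all nitrogen libraries of 90 min. Single nitrogen libraries of earlier times, which drew the axis, spread widely. They ran from 46.9% to 128% at 10 min, from 70.2% to 102% at 15 min and from 71.4% to 141% at 30 min. The difference of 90 min minus 60 min was -57.4 percentage points in nitrogen (exact p = 0.1, again the smallest possible) and -0.685 in KCl (exact p = 1). At 120 min nitrogen averaged 34.6% ± 5.53 (n = 2) and KCl 8.30% ± 8.30 (n = 3). The start libraries stood at 83.6%, 75.4% and 27.3%, so 1 start library lay apart from the other 2.

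**Figure D5:**
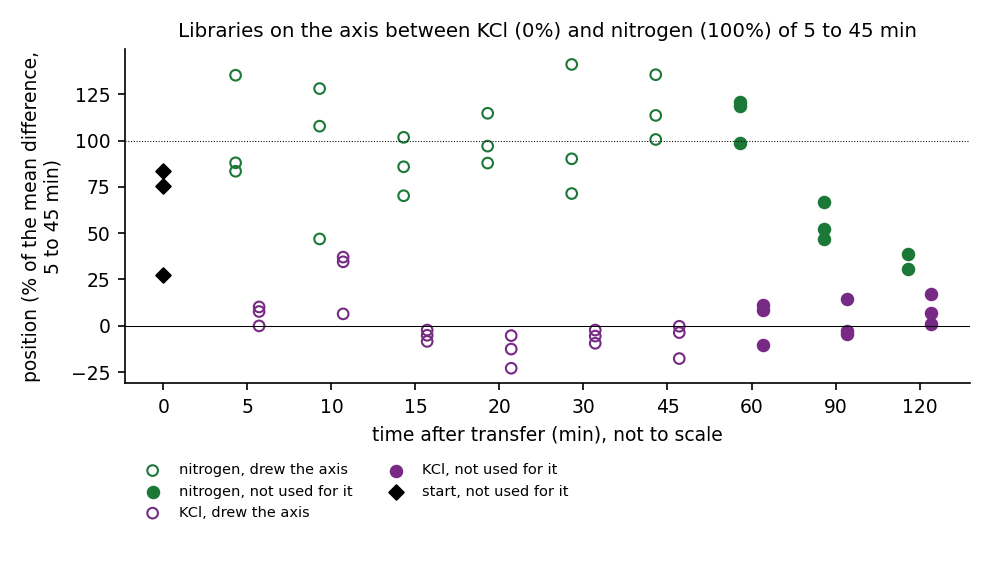
Position of each library between the mean of KCl (0%) and the mean of nitrogen (100%) over 5 to 45 min, by time after transfer (min, not to scale); open circles drew the axis, filled points did not, and diamonds are the start. Nitrogen libraries (green) lie at 98.6% to 121% at 60 min and at 47.0% to 66.9% at 90 min, while KCl libraries (purple) lie between -10.1% and 17.2% from 60 to 120 min.

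Shoots in nitrogen differed between 90 and 60 min in many genes. Nitrogen at 90 min minus nitrogen at 60 min called 1651 genes (8.97%), 869 higher (4.72%) and 782 lower (4.25%) at 90 min, in a comparison added after the data had been seen. With library totals the split was 1217 higher and 506 lower, or 70.6% higher against 52.6%, and with RLE size factors 992 higher and 603 lower. The count was 176 without nitrogen 60 min replicate 1, 310 without its replicate 3, and 470, 765 and 929 without nitrogen 90 min replicates 1, 2 and 3. KCl at 90 min minus KCl at 60 min called 0 genes by edgeR's quasi-likelihood test, with 654 at an unadjusted p under 0.05. The KCl libraries of 60 min were shallower, with 1116220 to 1972416 counts against 2622415 to 2930029 in nitrogen at 60 min. What depth did to the 0 and 1651 calls was not tested. These numbers of calls do not show that the media differed in their change. The test of that difference, the medium difference at 90 min minus that at 60 min, called 1 gene (0.00543%), with 2483 at an unadjusted p under 0.05.

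That gene was Zm00001d015123, a nuclear gene outside the network table on chromosome 5 (76475887 to 76478923, minus strand). At 90 min it had 19.7, 18.7 and 18.2 CPM in nitrogen, against 28.2, 24.3 and 24.98 CPM in KCl. At 60 min it averaged 37.6 ± 2.12 CPM in nitrogen and 21.7 ± 3.07 CPM in KCl (SD, n = 3 each). The nitrogen group was thus below KCl at 90 min and above it at 60 min. The log2 difference between media was -0.46 at 90 min (SE 0.166, adjusted p = 0.0876, not called) and 0.82 at 60 min, and the change between the times was -1.27 (SE 0.237, adjusted p = 0.0343). KCl means stayed between 20.5 and 30.9 CPM at all 9 times. Zm00001d015123 was not called, and no gene was, without any 1 of KCl 60 min replicate 1 or 2, nitrogen 60 min replicate 3, nitrogen 90 min replicates 1 to 3 or KCl 90 min replicates 1 and 2. Without nitrogen 60 min replicate 1 it was not called either, and 1 other gene was. The count was 206 without nitrogen 60 min replicate 2 and 3 without KCl 90 min replicate 3.

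The medium difference at 90 min minus that at 120 min also called 1 gene (0.00543%), with 1413 at an unadjusted p under 0.05. The gene, Zm00001d027932, a network target on chromosome 1 (17929504 to 17930569, minus strand), is named because it was the only call, after its values were seen, and its level was under the minimum for named genes. It had 0, 0 and 0.351 CPM in nitrogen at 90 min, against 5.43, 8.45 and 0.555 CPM in KCl. KCl replicate 3 was close to the nitrogen libraries. The log2 difference at 90 min was -4.80 (SE 1.02, adjusted p = 0.00255), from 1 count in nitrogen and 28 in KCl (KCl over nitrogen 38.2 per library size, 95% exact interval 6.32 to 1564). At 120 min it averaged 6.26 ± 4.41 CPM in nitrogen (n = 2) and 2.23 ± 0.432 CPM in KCl (n = 3), and the change between the times was -6.37 (SE 1.18, adjusted p = 0.0428). No gene was called without the library of 8560 counts, or without any 1 of nitrogen 120 min replicate 1, KCl 120 min replicates 1 and 3, nitrogen 90 min replicates 1 to 3 or KCl 90 min replicates 1 and 2. Without KCl 120 min replicate 2 there were 2 calls.

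Against the start the 2 media of 90 min gave unequal counts. Nitrogen at 90 min minus the start called 179 genes (0.972%), 129 higher (0.701%) and 50 lower (0.272%). KCl at 90 min minus the start called 1222 genes (6.64%), 648 higher (3.52%) and 574 lower (3.12%), so that 53.0% of the calls were higher, and 41.1% with library totals. The start libraries are shared, and 1 of them stood apart on the axis above. Without start replicate 1 the counts were 105 for nitrogen and 386 for KCl, and without start replicate 2 they were 112 and 629. Without start replicate 3, which stood apart on the axis, they were 167 for nitrogen and 1598 for KCl. Leaving out nitrogen replicate 2 or 3 gave 115 and 118 for nitrogen, and leaving out KCl replicate 1 or 2 gave 403 and 798 for KCl.

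Set against the mean difference of the 8 other times, the difference at 90 min was distinct for 174 genes (0.945%), 74 with a higher (0.402%) and 100 with a lower value (0.543%) at 90 min, in a test added after the data had been seen. With library totals the split was 103 higher and 73 lower, so its direction turned with the scaling. For 119 of the 174 genes the difference was larger in size at 90 min and for 55 it was smaller, and for 129 it had the opposite sign from the mean of the other times. They included 7 of the 203 regulators and 144 of the 2499 other targets of the network table, among 18412 genes tested. Since the genes of that table may have been picked on these libraries, these counts are not independent evidence. Of the 174 genes, 76 were also called at 90 min itself, beside 6.61% of all genes tested, and both tests use the libraries of 90 min. Without the library of 8560 counts 195 genes were called, 79 higher and 116 lower. Without it and with the main within-group axis of spread as a covariate there were 47, of which 41 were among the 174. The other libraries were not left out in turn for this test.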

How the data were processed

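The libraries were 3' end libraries with unique molecular identifiers, primed on poly(A). What the authors deposited are raw counts for each gene model, in whole numbers. STAR 2.7.6a, featureCounts 2.0.1, UMI-tools 1.1.1 and fastp 0.21.0 were used, per the submitters' processing notes. The header of the count table names featureCounts 1.5.1 and release 37 of the AGPv4 annotation. Per the file headers no strand option was set, so antisense or overlapping neighbours cannot be told apart. A quantile-normalized table deposited by the authors was treated as a score, since its rounded values share the total 2522105 in all 55 libraries it holds; it covers 18370 genes. The authors' network table gives a score, the weight, for 203 regulators and 2732 targets. For both tables the making is not given in the sources used. Left unused were 2 columns of the count table whose names match no labelled sample.

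The quasi-likelihood F test of edgeR 4.0.16, in R 4.3.3, was applied to all 57 libraries as 19 groups after filterByExpr and TMM scaling, which left 38 residual degrees of freedom and 18412 of 46335 genes. P-values are two-sided and adjusted by the Benjamini-Hochberg method over all genes tested, with a threshold of 0.05. Each SE is the absolute log2 difference divided by the square root of F, not a separate estimate. Intervals of summed counts are exact and cover counting error only. The scripts were tested on simulated data.

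The members, lists and tests were chosen with earlier results of these data known. Genes were named by a rule: an adjusted p under 0.05, a mean of at least 5 CPM and groups that do not overlap, then the largest differences in each direction, up to 12 with an informative name and 2 without; the rule also took the largest calls against 60 and 120 min. Organelle models took a name from RefSeq (Zm-B73-REFERENCE-NAM-5.0) where exactly 1 protein-coding gene overlapped and shared an end; 27 of 74 plastid and 97 of 144 mitochondrial models had the same start and end there. Lists that rest on gene names could not be applied to nuclear genes. Alternatives were other scalings and filters, DESeq2 1.42.0, limma 3.58.1 on the quantile-normalized score as log2(value + 1), fewer libraries, thinned counts, covariates and left-out replicates.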

Additional observations from a re-analysis of the deposited data

Results flagged for a closer look

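In 3 cases a test of the difference itself found that the difference between media at 90 min was not the same as at other times. For Zm00001d027932 the log2 difference at 90 min minus that at 120 min was -6.37, from 1 count in nitrogen and 28 counts in KCl at 90 min. This call was lost without the library of 8560 counts, replicate 3 of nitrogen at 120 min. For Zm00001d015123 the log2 difference at 90 min minus that at 60 min was -1.27, with nitrogen below KCl at 90 min and above it at 60 min. The call of Zm00001d015123 was lost in most fits with 1 library left out, and in DESeq2. Against the mean of the 8 other times, 174 genes differed at 90 min. The count was 47 without the shallow library and with the main within-group axis of spread as a covariate. The split of 74 higher and 100 lower became 103 and 73 with library totals.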

How the results depend on the processing

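The count of 1217 genes at 90 min stayed within 1.5 times under RLE size factors (1235), library totals (1267), no filter (1443), a mean of at least 5 CPM (1181), no shallow library (1258), the within-group axis as a covariate, also without the shallow library (1614), and the quantile-normalized score (1665). With only the libraries of the times compared it was 1938, and 1698, again within 1.5 times, when these were also thinned to equal depth. DESeq2 called 515 and gave an adjusted p for 8417 genes. With 1 library left out the count ran from 370 to 949. Deviations of libraries from the mean of their own group were correlated between nitrogen and KCl at 90 min. These correlations were 0.055, 0.016 and 0.083 for the same replicate number. For different numbers they ran from -0.077 to 0.032. Whether replicate numbers pair the samples was not tested, and the replicate block gave 1202 calls. The change against 60 min, 1 call, gave 5 with library totals, 449 without a filter, 11 without the shallow library, 0 with the axis, 120 with only the times compared, 102 when these were also thinned, 36 in the quantile-normalized score, 12 in DESeq2, none of them Zm00001d015123 and from 1278 genes with an adjusted p, and 0 to 206 with 1 library left out. The change against 120 min, 1 call, gave 84 without a filter, 5 with the axis, 0 to 2 with 1 library left out, and 0 with library totals, at least 5 CPM, no shallow library, only the times compared (thinned or not), the quantile-normalized score or DESeq2. DESeq2 gave 100 genes for nitrogen and 587 for KCl against the start, with 105 to 167 and 386 to 1598 when 1 library was left out. Nitrogen at 90 against 60 min ran from 176 to 2385 and KCl from 0 to 1. Against the mean of the other times there were 174 calls, 195 without the shallow library and 47 when the axis was added to that, 41 of these among the 174. No named gene changed direction in the alternatives run. The cause of these shifts was not tested, beyond fewer samples or other genes tested where an alternative sets that.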
